A study of Homo sapiens with 6 samples.

Results

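The 9 genes described here are 2 TGF-beta ligands (TGFB1 and TGFB2), the 2 receptors that carry the signal (TGFBR1 and TGFBR2), a SMAD that transmits it and another that damps it (SMAD3 and SMAD7), and ID1, ID2 and ID3. They were chosen by gene symbol from a table of 18780 genes. All 9 have a row and passed the filter on low values, a mean of at least 1 TPM. Their RNA was measured by RNA sequencing of PC-3, a human line from an advanced prostate cancer that grows without androgen. The tested cells received trans-Gnetin H (TGH), a compound built of linked resveratrol units, at 2.5 µM for 24 h (n = 3 libraries), and the control cells received the solvent DMSO (n = 3 libraries). All cells grew in the same serum-containing medium, and the study's title concerns depriving such cells of glucose with this compound. The labels do not say whether the libraries of a group came from separate cultures, so p-values measure only the spread between these libraries, which may be technical.

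TGF-beta is secreted in a latent form, is released outside the cell and binds the type II receptor TGFBR2, which activates the type I receptor TGFBR1. TGFBR1 phosphorylates SMAD2 and SMAD3, which enter the nucleus with SMAD4, and SMAD7 is a target gene whose protein blocks the receptor, which closes a feedback loop. ID proteins are helix-loop-helix proteins without a DNA-binding region that hold E proteins such as TCF3 away from DNA. Their genes are classical targets of the related BMP signal, and TGF-beta can raise or lower them depending on the cell. In the prostate, TGF-beta is known to restrain the growth of normal epithelium and to accompany invasion in late cancers.

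With TGH, ID1 and ID3 mRNA fell to 64.1% and 61.3% of the DMSO mean, while ID2 mRNA was at 96.9% and was not called. TGFB2 and TGFBR2 fell slightly, TGFBR1 rose slightly, and TGFB1, SMAD3 and SMAD7 were not called. Of the 9 genes 1 was higher and 4 were lower at an adjusted p under 0.05, that is 5 of 9, where 55.2% of the 12018 genes tested were called, 28.9% higher and 26.3% lower. A count of called genes of this size is therefore near the background. The ranges of both groups did not overlap in 6 of the 9 genes, where 64.4% of all genes tested behaved so. The median difference of the 9 genes was -0.04 on the log2 scale, against 0.02 over all genes tested.

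The values were deposited as log2(TPM + 1). TPM is a measure of transcript abundance that corrects for transcript length and library total, so levels of different genes can be compared. Levels are given as TPM, while differences and tests use the deposited scale, on which the offset shrinks the changes of low genes. The depth is unknown, since TPM does not preserve it. In such bulk samples fewer cells with a transcript and less transcript per cell cannot be told apart. DMSO replicates 1 and 2 list 3074 and 3185 genes at exactly 0, against 1342 to 1530 in the other 4 libraries. Epithelial markers KRT8, KRT18, EPCAM and CDH1 summed to 1060 to 1068 TPM with TGH and 1398 to 1421 TPM with DMSO. KRT8, at 423 to 426 TPM with TGH and 594 to 620 TPM with DMSO, and KRT18 carried most of this gap, while CDH1 was higher with TGH (51.3 to 52.9 TPM) than with DMSO (48.4 to 50.3 TPM). The part of this shift in the results below was not tested. The prostate luminal marker TMPRSS2 was at 5.08 to 5.50 TPM with TGH and 4.06 to 4.80 TPM with DMSO. Fibroblast, immune and endothelial markers, 12 of 12 measured, summed per type to at most 1.24 TPM in any library, and among them DCN and CD3E were each listed at 0 in 4 of 6 libraries.

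**Figure D1:**
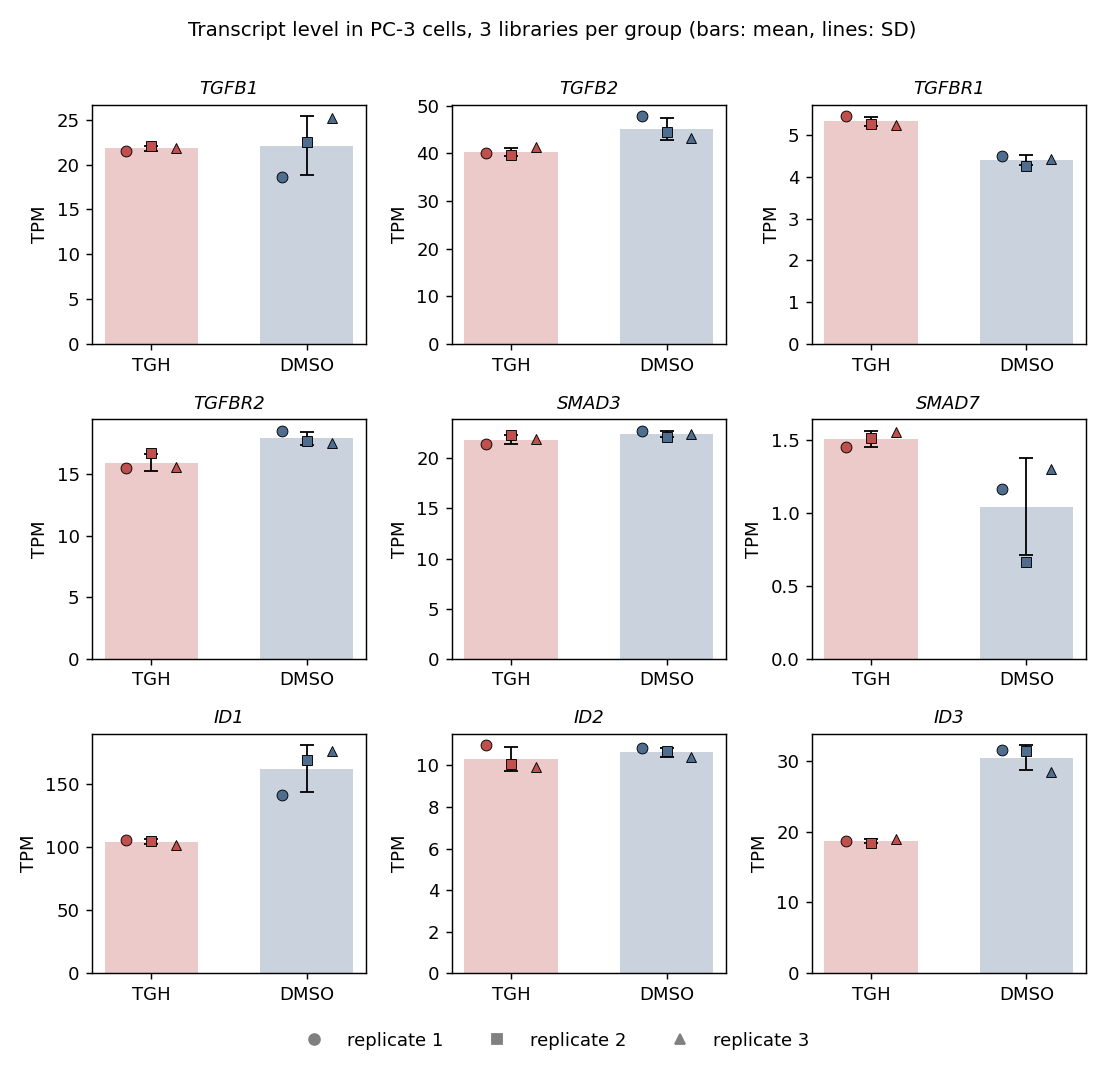
TPM of each gene in every library, with TGH libraries left and DMSO libraries right, bars for the group mean, lines for the SD and a marker shape per replicate number. ID1 and ID3 are the genes whose TGH libraries lie far under every DMSO library, at 102 to 105 TPM against 142 to 177 TPM for ID1 and 18.3 to 19.0 TPM against 28.4 to 31.6 TPM for ID3.

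Of TGFB1 and TGFB2, TGFB2 was the more abundant and the one called lower. TGFB2 was at 40.1, 39.6 and 41.3 TPM in TGH replicates 1 to 3, against 47.8, 44.5 and 43.1 TPM in DMSO replicates 1 to 3. All TGH libraries were lower than all DMSO libraries, by at least 1.86 TPM. The difference was -0.16 (SE 0.042, limma, Benjamini-Hochberg adjusted p = 0.0174). The call was lost without TGH replicate 1 (adjusted p = 0.0563), without TGH replicate 2 (adjusted p = 0.0620) and with DMSO replicate 3 as the only control (-0.10, adjusted p = 0.0893).

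TGFB1, the ligand best known in tissue repair and immune control, was at 21.5, 22.1 and 21.8 TPM in TGH replicates 1 to 3, against 18.6, 22.5 and 25.2 TPM in DMSO replicates 1 to 3. The TGH values lay inside the range of the DMSO values, whose SD was 3.28 TPM against 0.297 TPM with TGH. The difference was -0.01 (SE 0.098, limma adjusted p = 0.958). With DMSO replicate 3, the highest control, as the only control, TGFB1 was called lower (-0.20, adjusted p = 0.0117), a fit that borrows the spread of the TGH libraries for that control. TGFB1 took 34.4% ± 0.682 of the summed TPM of TGFB1, TGFB2 and TGFB3 with TGH and 31.8% ± 4.34 with DMSO (SD, n = 3 each). The sum itself was 63.5 ± 0.980 TPM with TGH and 69.4 ± 0.891 TPM with DMSO, and its ranges did not overlap. The log2 ratio of TGFB2 to TGFB1 within a library was 0.89 ± 0.041 with TGH and 1.04 ± 0.294 with DMSO. The ranges of this ratio overlapped, with a difference of -0.16 (two-sided exact permutation p = 0.5, and 0.6 adjusted over the 6 ratios compared). A different response of TGFB1 and TGFB2 is therefore not shown.

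The receptors went opposite ways by small amounts. TGFBR1, the type I receptor kinase, was at 5.44, 5.27 and 5.24 TPM in TGH replicates 1 to 3, against 4.50, 4.26 and 4.42 TPM in DMSO replicates 1 to 3. Every TGH library was above every DMSO library, and the mean was 21.1% higher. The difference was 0.23 (SE 0.043, limma adjusted p = 0.00434), and TGFBR1 was called higher under each of the 16 other settings that could test it, with differences of 0.14 to 0.27.

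TGFBR2, the type II receptor that binds the ligand first, was at 15.5, 16.8 and 15.6 TPM in TGH replicates 1 to 3, against 18.6, 17.8 and 17.6 TPM in DMSO replicates 1 to 3. The groups did not overlap, but TGH replicate 2 lay only 0.785 TPM under the lowest DMSO library. The difference was -0.16 (SE 0.042, limma adjusted p = 0.0164). The call was lost without TGH replicate 1 (adjusted p = 0.0612), without TGH replicate 3 (adjusted p = 0.0648) and with DMSO replicate 3 as the only control (adjusted p = 0.120). Within a library, the log2 ratio of TGFBR2 to TGFBR1 was 1.51, 1.67 and 1.57 in TGH replicates 1 to 3, against 2.04, 2.06 and 1.99 in DMSO replicates 1 to 3. Multiplying all values of a library by a factor leaves this ratio as it is. It was lower by 0.45 in TGH cells without overlap of the groups (difference -0.45, two-sided exact permutation p = 0.1, the smallest that 3 against 3 libraries allow, and 0.15 adjusted over the 6 ratios compared).

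**Figure D2:**
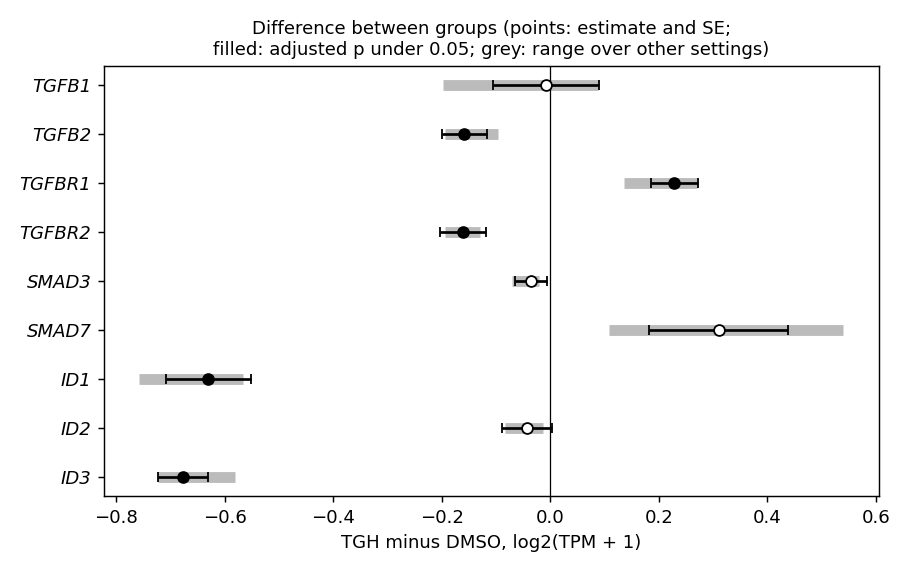
TGH minus DMSO difference of each gene on the log2(TPM + 1) scale, with points and lines for the estimate and its SE, filled points for an adjusted p under 0.05 and grey bars for the range over the other settings. ID1 and ID3 lie near -0.63 and -0.68, TGFBR1 at 0.23, and the grey bar of SMAD7 runs from 0.11 to 0.54.

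SMAD3, which carries the signal to the nucleus, was at 21.4, 22.3 and 21.9 TPM in TGH replicates 1 to 3, against 22.8, 22.2 and 22.4 TPM in DMSO replicates 1 to 3. The ranges overlapped, and the difference was -0.04 (SE 0.030, limma adjusted p = 0.347). It was uncalled under all 17 other settings.

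SMAD7, the feedback inhibitor, was the lowest of the 9 genes, at 1.45, 1.52 and 1.56 TPM in TGH replicates 1 to 3, against 1.17, 0.665 and 1.301 TPM in DMSO replicates 1 to 3. All TGH libraries were above all DMSO libraries, with a gap of 0.151 TPM. The DMSO values were spread widely, with an SD that was 32.1% of their mean, against 3.64% with TGH, and the lowest value belonged to DMSO replicate 2, the library with the most genes at 0. The part of that library's zeros in this value was not tested. The difference was 0.31 (SE 0.128, limma adjusted p = 0.0795), and SMAD7 was called higher only without DMSO replicate 3 (0.40, adjusted p = 0.0448), while against DMSO replicate 3 alone it had 0.13 (adjusted p = 0.234). The log2 ratio of SMAD7 to SMAD3 was -3.86 ± 0.040 with TGH and -4.49 ± 0.506 with DMSO (SD, n = 3 each, exact permutation p = 0.1, adjusted p = 0.15). Without DMSO replicate 2 the difference of this ratio was 0.34 instead of 0.63, and that of SMAD7 itself was 0.17 instead of 0.31.

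ID1 was the most abundant of the 9 genes. It was at 105, 105 and 102 TPM in TGH replicates 1 to 3, against 142, 169 and 177 TPM in DMSO replicates 1 to 3. The groups were separated by 36.1 TPM, and the spread lay almost wholly in the DMSO libraries, with an SD of 18.5 TPM against 1.99 TPM with TGH. ID1 fell by 0.63 on the log2 scale (SE 0.078, limma adjusted p = 6.8e-04). Of the 12018 genes tested 223 fell at least as far, ID1 included, which is 1.86%. DMSO replicate 1, the lowest control, was 1 of the 2 libraries with many genes at 0, and without it the difference was -0.73 (adjusted p = 3.8e-05).

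ID3 was at 18.6, 18.3 and 19.0 TPM in TGH replicates 1 to 3, against 31.6, 31.3 and 28.4 TPM in DMSO replicates 1 to 3. Every TGH library was at least 9.40 TPM under every DMSO library. ID3 fell by 0.68 (SE 0.046, limma adjusted p = 5.2e-05), and 184 of 12018 genes, or 1.53%, fell at least as far. Both ID1 and ID3 were called lower under all 17 other settings, ID1 with differences of -0.76 to -0.57 and ID3 with -0.72 to -0.58.

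ID2 was at 10.97, 10.1 and 9.91 TPM in TGH replicates 1 to 3, against 10.8, 10.7 and 10.4 TPM in DMSO replicates 1 to 3. Its groups overlapped, and the highest and the lowest value of all 6 were both TGH libraries. The difference was -0.04 (SE 0.046, limma adjusted p = 0.467), and it was uncalled under all 17 other settings, with differences of -0.08 to -0.01. ID4, a further relative named after its values were seen, was under the filter on low values, at 0.122 to 0.189 TPM with TGH and 0.146 to 0.284 TPM with DMSO.

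The response of ID2 was set against those of ID1 and ID3 within each library. The log2 ratio of ID2 to ID3 was -0.76, -0.87 and -0.94 in TGH replicates 1 to 3, against -1.54, -1.55 and -1.45 in DMSO replicates 1 to 3, a difference of 0.66 with no overlap (exact permutation p = 0.1, adjusted p = 0.15). The log2 ratio of ID1 to ID2 was 3.26, 3.38 and 3.36 in TGH replicates 1 to 3, against 3.71, 3.98 and 4.09 in DMSO replicates 1 to 3, a difference of -0.59 with no overlap (exact permutation p = 0.1, adjusted p = 0.15). The log2 ratio of ID1 to ID3 was 2.48 ± 0.052 with TGH and 2.41 ± 0.237 with DMSO, with overlapping groups (difference 0.07, exact permutation p = 0.8), and its sign turned without DMSO replicate 1. A p of this size does not show that ID1 and ID3 fell alike.

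Summed over ID1, ID2 and ID3, ID mRNA was 133 ± 2.16 TPM with TGH and 204 ± 17.1 TPM with DMSO (SD, n = 3 each). ID1 made up 78.2% ± 0.443 of this sum with TGH and 79.7% ± 2.55 with DMSO. The share of ID2 was 7.75% ± 0.327 with TGH and 5.26% ± 0.558 with DMSO, and its ranges did not overlap, with 7.54% to 8.12% against 4.83% to 5.89%. This higher share follows from the lower ID1 and ID3 in the same sum, as ID2 itself was not called. It adds no separate evidence on ID2.

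**Figure D3:**
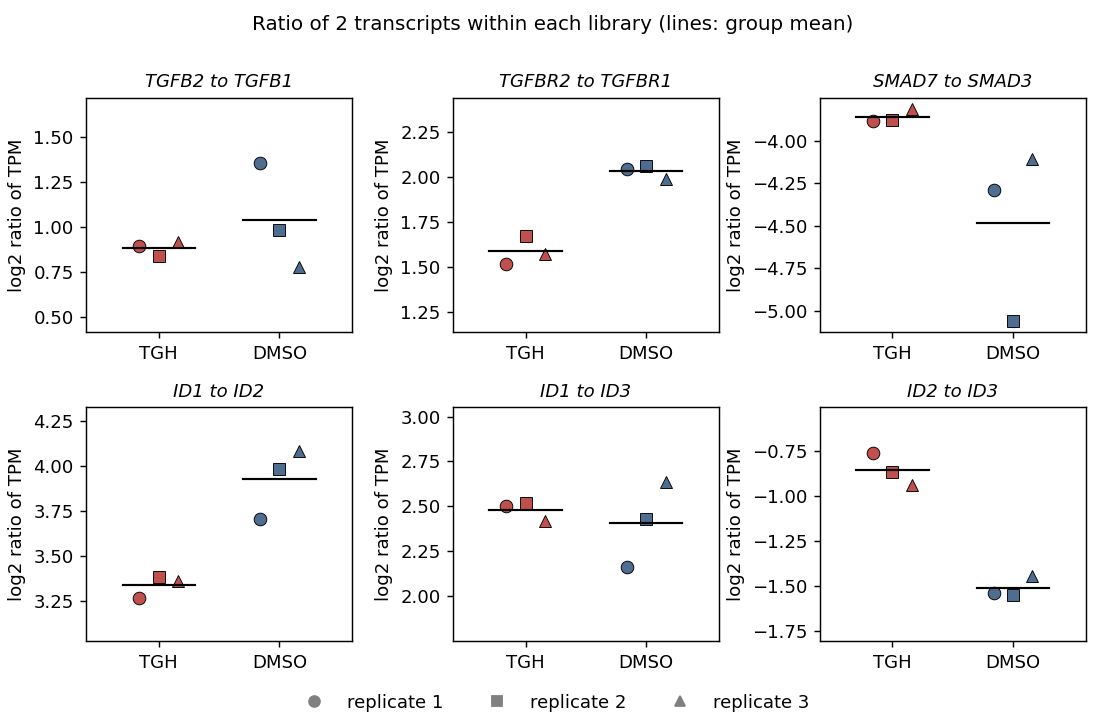
Log2 ratio of the TPM of 2 genes within each library for the 6 pairs compared, TGH left and DMSO right, with a line for the group mean. The groups are apart for TGFBR2 to TGFBR1, SMAD7 to SMAD3, ID1 to ID2 and ID2 to ID3, and overlap for TGFB2 to TGFB1 and ID1 to ID3.

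The promoters of the ID genes are shown because ID1 and ID3 fell while ID2 was not called. The sequences are from RefSeq on GRCh38.p14, whereas the expression values were made on hg19, and each covers 250 bases before to 50 bases after the annotated start. Capitals mark matches to the SMAD box CAGAC (both strands), the GC-rich SMAD motif GGCGCC (which reads the same on both strands), CCAAT (both strands) and TATAA (strand of the gene). The last 2 motifs were added after the letters had been seen. The matches do not overlap each other.
ID1, chr20:31605039-31605338, plus strand: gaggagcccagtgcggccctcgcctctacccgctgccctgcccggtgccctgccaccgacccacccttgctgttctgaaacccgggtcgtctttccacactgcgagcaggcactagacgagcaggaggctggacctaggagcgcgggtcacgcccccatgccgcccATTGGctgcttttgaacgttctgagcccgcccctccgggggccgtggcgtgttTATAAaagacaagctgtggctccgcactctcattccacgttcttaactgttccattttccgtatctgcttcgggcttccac
ID2, chr2:8681806-8682105, plus strand: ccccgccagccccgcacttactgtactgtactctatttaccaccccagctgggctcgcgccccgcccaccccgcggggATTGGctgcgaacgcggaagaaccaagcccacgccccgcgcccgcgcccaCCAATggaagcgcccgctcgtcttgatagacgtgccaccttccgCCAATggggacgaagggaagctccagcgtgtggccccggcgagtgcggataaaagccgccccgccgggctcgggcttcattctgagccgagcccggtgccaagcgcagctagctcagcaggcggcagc
ID3, chr1:23559452-23559751, minus strand: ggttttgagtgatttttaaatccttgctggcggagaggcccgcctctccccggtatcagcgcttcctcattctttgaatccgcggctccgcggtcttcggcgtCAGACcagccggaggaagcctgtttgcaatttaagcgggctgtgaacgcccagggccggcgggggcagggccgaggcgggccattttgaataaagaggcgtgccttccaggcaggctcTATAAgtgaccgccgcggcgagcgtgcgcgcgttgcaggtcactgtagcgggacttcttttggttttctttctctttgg

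The SMAD box was found in the ID3 window alone among these 3, starting 147 bases before the gene's start, and 45.3% of the 35116 RefSeq windows of this length hold it. GGCGCC was found in none of the 3 windows, while 19.2% of all windows hold it. An exact TATAA stood 31 bases before the start in ID1 and 29 bases before it in ID3, and none was in the ID2 window (14.8% of all windows). At the same distance as the TATAA of ID1, the ID2 window holds GATAA, differing from TATAA in the first letter alone. The absence in ID2 therefore rests on the exact letters searched. Because TATAA was chosen after these letters had been seen, its presence in ID1 and ID3 but not ID2 cannot serve as a test. A link to the fall of ID1 and ID3 was not tested. CCAAT or its complement was found once in ID1, at 84 bases before the start, and 3 times in ID2, at 172, 122 and 78 bases before it, and not in ID3 (34.6% of all windows). These matches describe letters in the window, and a missing match says nothing about binding of a factor. All 9 genes have windows in the table, 23 in all, of which 11 windows of 5 genes hold the SMAD box.

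In order of level with TGH, ID1 was followed by TGFB2, SMAD3, TGFB1, ID3, TGFBR2, ID2, TGFBR1 and SMAD7. With DMSO, ID3 stood next after TGFB2, before SMAD3 and TGFB1, and the rest of the order was the same. SMAD3 and TGFB1 were neighbours in both groups, and their ranges overlapped in both. No other neighbours in these orders had overlapping ranges within a group.

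For each gene, the 2 genes with the most similar log2 values over the 6 libraries were taken from 11624 candidates. These correlations are descriptions over 6 points that share the division into TGH and DMSO, and high values are common under such a division. For ID1 they were PTMA, a small acidic nuclear protein (r = 0.999), and EMC8, a subunit of a membrane protein insertion complex (r = 0.999). For ID3 they were PRDX1, a peroxide-reducing enzyme (r = 0.9998), and NHP2L1, a protein of small nuclear ribonucleoproteins (r = 0.999). The closest genes to ID2 had lower values, 0.954 for both DDX47, a nucleolar helicase, and SYNJ2BP, a protein of the mitochondrial outer membrane.

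TGFB2 was closest to KDM3A, a histone demethylase (r = 0.999), and ATP6V1A, a subunit of the proton pump of lysosomes (r = 0.996). TGFB1 was closest to CDKN2A, a cell cycle inhibitor gene (r = 0.986), and ZNF444, a zinc finger protein (r = 0.985). TGFBR1 was closest to BRWD1, a bromodomain protein (r = 0.999), and CTHRC1, a secreted collagen-like protein (r = 0.999), and TGFBR2 to RANBP6 (r = 0.996) and REV3L, a subunit of a DNA polymerase (r = 0.994). SMAD3 was closest to LMF2 (r = 0.993) and SH3GL3 (r = 0.987), and SMAD7 to IDS, a lysosomal sulfatase (r = 0.998), and APRT, an enzyme of purine salvage (r = 0.984).

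The rest of the pathway was read from 7 gene lists, of which 72 of 107 genes passed the filter. Of the 72 genes 24 were higher and 21 lower with TGH, or 62.5%, against 55.2% over all genes tested, with a median difference of 0.01. The balance turned to 21 higher and 25 lower under median scaling and to 20 higher and 26 lower under quantile normalization. Over all genes it turned likewise, to 3083 higher and 3630 lower under median scaling and 2964 higher and 3643 lower under quantile normalization, against 3479 and 3156 as deposited. Of the 45 called genes 30 were called under all other settings that could test them.

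Among the 5 of 21 other measured ligand genes that passed the filter, 4 were lower, where 26.3% of all genes tested were, and the other was not called, at a median of -0.42 against 0.02 over all genes tested. INHBB, a subunit of activin and inhibin, was at 52.9 ± 0.972 TPM with TGH and 83.3 ± 2.01 TPM with DMSO (SD, n = 3 each), a fall of 0.65 (limma adjusted p = 1.0e-05). GDF11, a relative of myostatin, had -0.44 (adjusted p = 0.00186) and TGFB3, the remaining TGF-beta ligand, -0.42 (adjusted p = 0.0147). BMP4, a ligand of the BMP branch, had 6.35 ± 0.793 TPM with TGH and 7.87 ± 0.384 TPM with DMSO (-0.28, adjusted p = 0.0288). The call of TGFB3 was lost under 3 settings and that of BMP4 under 6, with adjusted p up to 0.0655 and 0.117, so 2 of the 5 were called under every setting. INHBA, the gene of another activin subunit, named after its value was seen, was at 75.7 ± 1.89 TPM with TGH and 78.4 ± 2.75 TPM with DMSO and was not called (adjusted p = 0.255).

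Genes for storage and release of latent TGF-beta moved in both directions. TGH raised 5 of the 10 that passed the filter and lowered 1, leaving 4 uncalled, at a median of 0.10. This share called, 60%, is near the 55.2% over all genes tested. The calls of LTBP3 and ITGB6, both named after their values were seen, were lost under 3 and 8 settings. LTBP4, a latent TGF-beta binding protein, was at 5.30 ± 0.177 TPM with TGH and 3.54 ± 0.556 TPM with DMSO (0.48, limma adjusted p = 0.00463). LTBP2, of the same family, rose by 0.40 (adjusted p = 7.3e-04) and ITGAV, an integrin chain that takes part in releasing the ligand, by 0.26 (adjusted p = 9.1e-04). FBN2, a fibrillin of the matrix that holds latent complexes, fell by 0.25 (adjusted p = 0.00126).

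The other receptor genes showed 1 call among 7, for a rise, at a median of 0.04. The share called was 14.3%, against 55.2% over all genes tested. ACVR1, a type I receptor of the BMP branch, was at 7.29 ± 0.255 TPM with TGH and 5.83 ± 0.695 TPM with DMSO (0.28, limma adjusted p = 0.0209), and its call was lost under 3 settings. BMPR1A, another type I receptor (0.11, adjusted p = 0.120), and TGFBR3, the co-receptor betaglycan (0.12, adjusted p = 0.156), were not called, although TGFBR3 was called higher with variances without a trend (adjusted p = 0.0197). ACVR1B, the activin type I receptor, was not called either (-0.14, adjusted p = 0.0575), but was called lower under 4 other settings.

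Among 11 other SMADs, anchors and partners 3 rose, 5 fell and 3 stayed uncalled, at a median of -0.10. The share called was 72.7%, against 55.2% over all genes tested. SMAD6, the feedback inhibitor of the BMP branch, was at 2.27 ± 0.352 TPM with TGH and 3.81 ± 0.501 TPM with DMSO, a fall of 0.55 (limma adjusted p = 0.00498). SMAD5, a transducer of BMP signals, fell by 0.27 (adjusted p = 0.00151) and CREBBP, a coactivator, by 0.23 (adjusted p = 0.00357). ZFYVE9, which presents SMAD2 and SMAD3 to the receptor, rose by 0.35 (adjusted p = 0.00412).

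For the 19 inhibitors and feedback genes the test gave 8 rises, 4 falls and 7 uncalled genes, at a median of 0.11. The share called was 63.2%, against 55.2% over all genes tested. FSTL3, a secreted protein that binds activins, was at 42.0 ± 0.945 TPM with TGH and 20.3 ± 1.24 TPM with DMSO, a rise of 1.02 (limma adjusted p = 1.3e-05). Its relative FST, follistatin, went the other way, with 199.8 ± 1.99 TPM with TGH and 244 ± 3.66 TPM with DMSO (-0.29, adjusted p = 5.1e-05). SMURF2, a ubiquitin ligase that removes receptors and SMADs, rose by 0.39 (adjusted p = 6.6e-05) and USP4, a deubiquitinase that acts on TGFBR1, by 0.27 (adjusted p = 5.2e-04).

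Target genes of TGF-beta had 7 higher, 5 lower and 4 uncalled of 16, with a median of 0.01. The share called was 75%, against 55.2% over all genes tested. TAGLN, an actin-binding protein, was at 10.97 ± 0.200 TPM with TGH and 3.21 ± 0.226 TPM with DMSO, a rise of 1.51 (limma adjusted p = 4.2e-06). FN1, fibronectin, rose by 0.61 (adjusted p = 2.2e-05). THBS1, which can release latent TGF-beta, was at 345 ± 4.10 TPM with TGH and 556 ± 6.60 TPM with DMSO (-0.69, adjusted p = 1.3e-06). KLF10, a TGF-beta-inducible transcriptional repressor, fell by 0.80 (adjusted p = 2.8e-06).

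**Figure D4:**
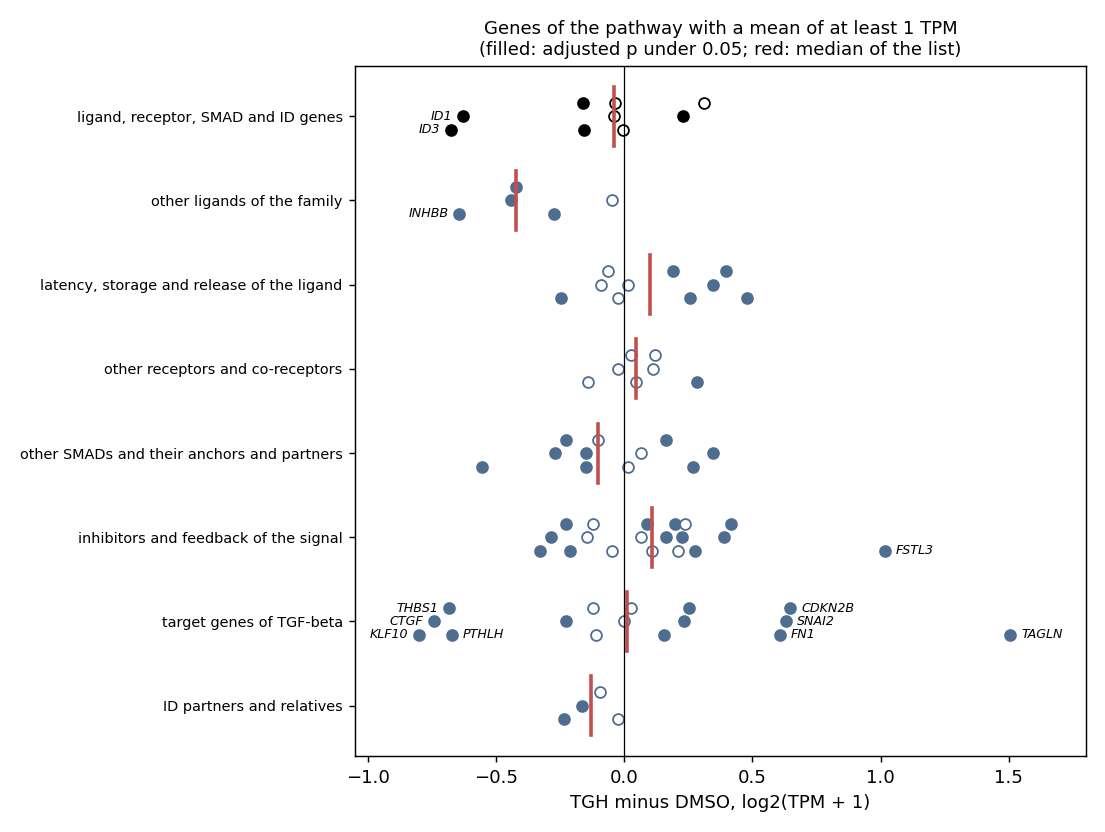
TGH minus DMSO difference of the ligand, receptor, SMAD and ID genes and of the pathway genes that passed the filter, 1 row of points per list, filled for an adjusted p under 0.05, with a red line at the list's median. Target genes of TGF-beta spread from -0.80 for KLF10 to 1.51 for TAGLN around a median of 0.01, while the other ligands lie at or under -0.05.

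Of the partners and relatives of the ID proteins, 4 passed the filter, of which 2 were lower and 2 were not called. This share called, 50%, is near the 55.2% over all genes tested. TCF3, which encodes the E proteins E12 and E47, was at 24.0 ± 0.338 TPM with TGH and 27.1 ± 1.77 TPM with DMSO (-0.16, limma adjusted p = 0.0277), a call lost under 5 settings. TCF12, another E protein gene, was at 7.33 ± 0.428 TPM with TGH and 7.50 ± 1.07 TPM with DMSO, and TCF4, also an E protein gene, at 0.963 ± 0.055 TPM with TGH and 1.10 ± 0.082 TPM with DMSO, and neither was called. Under quantile normalization TCF4 was called lower (-0.33, limma adjusted p = 0.0221). HES1, a repressor with a helix-loop-helix, fell by 0.24 (adjusted p = 0.00587).

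The gene models behind the table are not known. RefSeq annotates antisense genes that overlap TGFB2 and SMAD3, and other genes that overlap TGFB2 (TGFB2-OT1), TGFBR1 (RNA5SP290), TGFBR2 (KLHL25P1 and LOC105377015) and ID3 (LOC124903876). None of these has a row in the table used here. The library kit keeps the strand, but whether the counting used it is not given in the sources used here, so reads of such partners cannot be told apart from those of these 5 genes.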

How the data were processed

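RNA of 6 PC-3 libraries (3 TGH, 3 DMSO) went through ribosomal RNA removal and a directional library kit, per the labels' protocols. The authors deposited log2 values of TPM, 1 row per gene symbol; the offset of 1 was read from the smallest value, which is 0. Per the submitters' processing notes, hg19 served as genome. For the aligner, quantifier, annotation and gene filters, nothing is stated in the labels used here. The TPM of a library sum to 50.2% to 51.9% of a complete column. TPM keeps no depth, so no counting interval is given.

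The 12018 genes whose TPM averaged 1 or more were compared with limma 3.58.1 in R 4.3.3 (trended moderated variances, two-sided, Benjamini-Hochberg over all genes tested, call at an adjusted p under 0.05). The limma and permutation steps were tested on simulated data. Ratios within libraries were compared with exact permutation tests (scipy 1.17.1), and figures drawn with matplotlib 3.10.9. Members and lists were chosen with earlier results of these data known. Named were all 9 genes, up to 4 genes per list with the smallest p, and the 2 genes most correlated with each of the 9. Protein identities were planned but not computed. INHBA, LTBP3, ITGB6 and ID4 were named after their values were seen. Alternatives were pseudocounts of 0.1 and 5, filters of 0 and 5 TPM, 3 other scalings, untrended or robust variances, blocking on replicate number, DMSO replicate 3 as the only control, and leaving out each library.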

Additional observations from a re-analysis of the deposited data

How the results depend on the processing

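With TGH the number of genes called higher was 2578 to 3879 and lower 2557 to 3643 over the 17 other settings, and each stayed within 1.5 times the reported counts of 3479 and 3156. Of the 9 genes, 0 were called higher with a filter of at least 5 TPM, which leaves TGFBR1 and SMAD7 untested. Over the settings that leave out 1 library, 1 to 2 were called higher and 2 to 4 lower. The lower count was 2 without TGH replicate 1, where TGFB2 and TGFBR2 lost their calls, and the higher count 2 without DMSO replicate 3, where SMAD7 gained one. TGFB1, uncalled as deposited, had differences of -0.119 to 0.0881 when 1 library was left out, and TCF12 -0.116 to 0.0667. TGFBR3 turned to -0.0302 under quantile normalization, and the cause was not tested. The difference of the TGFB2 to TGFB1 ratio ran from -0.286 to 0.00384 and that of ID1 to ID3 from -0.0532 to 0.183 when 1 library was left out.

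With the replicate number of the titles as a replicate block, ID1 was called at an adjusted p of 0.00264 and ID3 at 8.0e-04, with 1 gene of the 9 higher and 4 lower, as reported, and 3273 genes higher and 2958 lower in all. The deviations of same-numbered libraries from their group means correlated at 0.01, 0.05 and 0.23 for numbers 1 to 3. The value for number 3 was the highest of all pairings of a TGH with a DMSO library. TGH replicates 2 and 3 each correlated best with the DMSO library of the same number, while TGH replicate 1 correlated best with DMSO replicate 2, at 0.096. The numbers were not taken to pair the libraries. Scaling moved the median of all genes from 0.02 to between -0.03 and 0.01.

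The depth is unknown, so what it limits could not be measured.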
